A study of Homo sapiens with 30 samples.

Results

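The genes described here are 10 genes of the activator protein 1 (AP-1) and immediate early class, FOS, FOSB, FOSL1, FOSL2, JUN, JUNB, JUND, EGR1, IER2 and IER3, out of 23710 genes in the count tables and 23616 gene symbols in the FPKM tables. They were chosen by symbol and not by their values, and all 10 were found in both kinds of table. RNA sequencing was performed on 30 samples, 3 in each of 10 conditions, of prostate cancer cell lines that grow without testicular androgen. V16D is a castration-resistant derivative of the LNCaP line. MR49F is an enzalutamide-resistant derivative that was grown out of LNCaP xenografts in castrated mice given enzalutamide. By the study's methods, MR49F cells were kept in medium with 10 μM enzalutamide. Their vehicle samples may therefore follow withdrawal of the drug, and the time without it in full serum is not stated. In full serum, both lines received vehicle or 10 μM enzalutamide, an antiandrogen drug, for 24 h. In charcoal-stripped serum, from which steroids are removed, MR49F cells spent 72 h before a treatment of 24 h. The treatments were vehicle, DHT (dihydrotestosterone, a potent androgen) at 1 nM, enzalutamide at 10 μM, and each of the 3 combined with JQ-1, an inhibitor of BET bromodomain proteins, at 500 nM. V16D in stripped serum was not analysed here, and each line is a single line. The 3 samples of a condition are biological replicates by the study's methods, each pooled from 2 wells, and the p-values measure the spread between them. The sample labels say plated in triplicate, and whether the samples came from separate passages is not stated. The comparisons ask how AP-1 and immediate early transcripts follow androgen, antiandrogen and BET inhibition, and how the lines differ.

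AP-1 is a family of leucine-zipper dimers. Jun proteins pair with each other or with a Fos protein, Fos proteins need a Jun partner, and the dimers bind the sequence TGAGTCA or the related TGACGTCA. The family includes immediate early genes, whose transcripts appear soon after growth factor, stress or cytokine signals without new protein synthesis and mostly decay quickly, so that a culture treated for a day is seen long after such a pulse. JUN is also bound by its own product at the TGACATCA element of its promoter. BET proteins read acetylated histones at promoters and enhancers and help the release of paused polymerase.

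On GRCh37, the build of the deposited data, the GENCODE annotation placed FOS at chr14:75745529-75748933, FOSL2 at chr2:28615315-28640184, JUNB at chr19:12902300-12904129 and IER2 at chr19:13261225-13265725, all on the plus strand. JUN lay at chr1:59242517-59249720 and JUND at chr19:18390504-18392432, both on the minus strand. The promoters of the 4 genes whose levels changed most with JQ-1, enzalutamide or DHT in stripped serum follow, as the 250 bases before the RefSeq transcription start on the strand of the gene (GRCh38.p14: FOS chr14:75278578-75278827, FOSL2 chr2:28392608-28392857, JUN chr1:58784048-58784297 and JUND chr19:18281623-18281872). Capitals mark TGACG or its complement CGTCA, the palindrome TGACGTCA, and TGACATCA.
FOS: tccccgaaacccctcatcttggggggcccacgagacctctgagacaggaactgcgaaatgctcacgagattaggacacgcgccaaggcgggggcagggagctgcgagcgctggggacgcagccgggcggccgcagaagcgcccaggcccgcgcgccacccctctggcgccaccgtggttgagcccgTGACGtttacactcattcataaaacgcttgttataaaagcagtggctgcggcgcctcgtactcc
FOSL2: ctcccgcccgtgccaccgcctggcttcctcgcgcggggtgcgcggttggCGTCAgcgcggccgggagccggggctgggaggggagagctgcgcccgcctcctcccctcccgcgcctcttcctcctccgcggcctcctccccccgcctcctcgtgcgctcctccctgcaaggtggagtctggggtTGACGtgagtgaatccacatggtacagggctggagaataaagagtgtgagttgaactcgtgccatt
JUN: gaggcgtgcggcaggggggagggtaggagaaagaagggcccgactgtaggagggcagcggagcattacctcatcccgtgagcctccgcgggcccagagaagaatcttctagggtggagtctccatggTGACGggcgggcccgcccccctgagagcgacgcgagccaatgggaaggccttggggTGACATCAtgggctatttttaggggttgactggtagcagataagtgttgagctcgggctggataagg
JUND: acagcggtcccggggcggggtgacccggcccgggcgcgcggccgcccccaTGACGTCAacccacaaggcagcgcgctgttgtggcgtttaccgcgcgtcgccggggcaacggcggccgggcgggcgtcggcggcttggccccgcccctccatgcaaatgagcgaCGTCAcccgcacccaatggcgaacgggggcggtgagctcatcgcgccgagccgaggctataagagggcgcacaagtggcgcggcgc
JUN held TGACATCA at position -67 from its start, a motif found on either strand in 2.61% of the 35116 RefSeq promoters of 300 bases (250 before and 50 after the start). JUND held the full palindrome TGACGTCA at -200, found in 1.85%. FOSL2 held TGACTCA, the complement of the AP-1 consensus TGAGTCA, at position 5 after its start, past the bases shown, and 4.95% of promoters held that motif. The 5-base TGACG, which also lies inside TGACGTCA, was present in 8 of the 8 members with a RefSeq promoter entry (FOS, FOSB, FOSL2, JUN, JUNB, JUND, EGR1 and IER2), against 24.6% of all promoters and 32.9% of the 12489 promoters in the members' range of GC content (62% to 77%, where the median of all promoters was 58.7%). EGR1 held CArG boxes, the binding sequence of serum response factor, at -105 and -83. These are matches of letters in a window, not measured binding.

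Full-serum libraries had 13170504 to 21154962 reads counted on genes, and stripped-serum libraries had 982130 to 1813262. The difference lay in the share of reads that fell on genes in the count tables, 73.0% to 77.8% in full serum and 5.13% to 7.66% in stripped serum. In stripped-serum vehicle samples the counted reads behind 1 FPKM were 12.8% of those in full serum for JUN, 15.3% for JUND, 12.5% for JUNB, 8.38% for FOSL2 and 9.81% for FOS, with a median of 8.3% over 11364 genes. The quartiles over those genes were 6.22% and 11.5%. Counts were therefore compared only within one serum, which does not remove uneven counting between genes. The cause of the low share was not tested, and whether the counting used strand is not stated. Effect sizes from stripped-serum counts carry this limit. Stripped-serum calls of members were tallied from counts (edgeR) and from FPKM (limma on log2(FPKM + 1)). The FPKM scale understates changes of low genes. The plot of both measures shows how close they were. As a check of the labels, KLK3, the androgen-induced gene that encodes prostate-specific antigen, went from 500 to 518 FPKM in V16D vehicle samples to 130 to 134 with enzalutamide, and in stripped-serum MR49F cells from 277 to 289 with vehicle to 1212 to 1327 with DHT, 794 to 810 with enzalutamide and 6.45 to 7.61 with JQ-1. All 10 prostate epithelial markers were at 1 FPKM or above in all 30 samples, whereas 9 of 13 markers of leukocytes, endothelium, stroma or basal cells were below 1 FPKM in every sample. In bulk RNA, fewer cells with a transcript and less transcript per cell cannot be told apart.

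The levels of the 10 genes spanned a wide range (the plot of all members by sample). JUND, JUNB, JUN, IER2 and FOSL2 were at 3.19 FPKM or more in all 30 samples. FOSB, FOSL1 and EGR1 were at 0.672 FPKM or less in every sample, with at most 43 counted reads, and FOS passed 1 FPKM in stripped serum and in only 1 full-serum sample. IER3 was listed in the FPKM tables as 6 entries of 1 transcript accession, which summed to 1.91 to 4.14 FPKM, but had only 0 to 5 counted reads, so it was tested on FPKM alone and its level is uncertain. JUNB shares exonic sequence with HOOK2 on the other strand, and IER2 and IER3 with noncoding antisense genes. Whether the counting used strand is not stated in the sources, so reads of such pairs may not be separated.

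**Figure D1:**
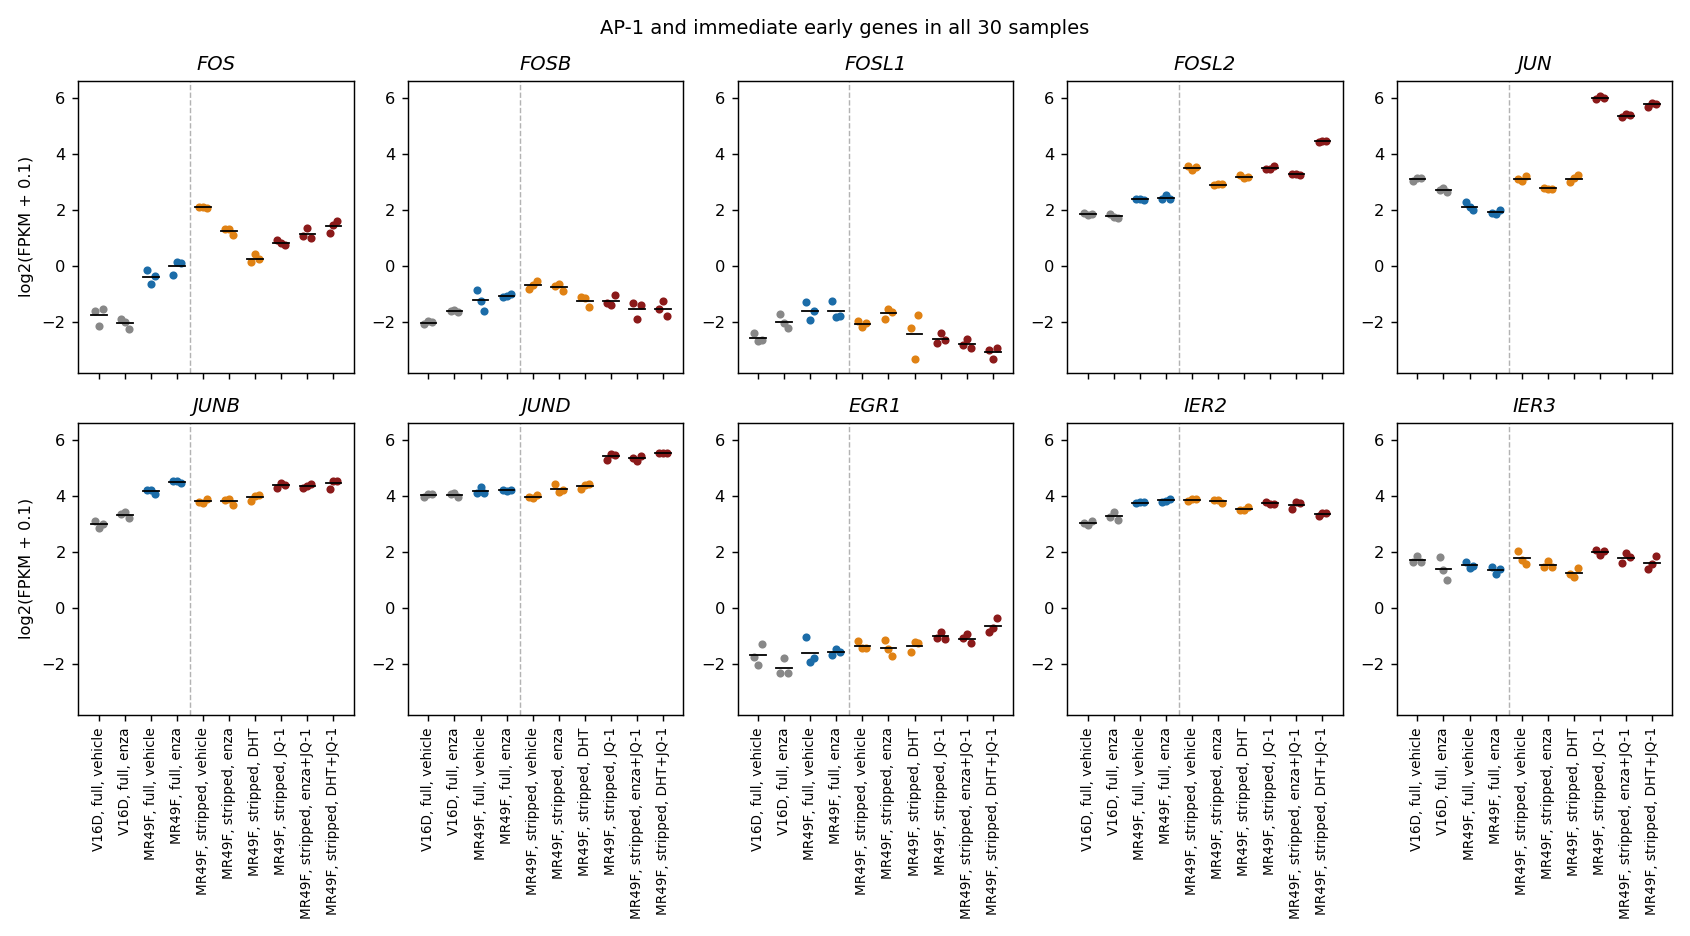
Level of each of the 10 genes in all 30 samples, as log2(FPKM + 0.1), with 1 point per sample and a black line at the mean of the 3 samples of a condition. Grey is V16D and blue MR49F in full serum, orange and dark red are MR49F in stripped serum without and with JQ-1, and the dashed line separates the sera. JUN stood at 39.6 to 66.2 FPKM in the 9 JQ-1 samples and at 9.32 FPKM or less in the other 21.

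JQ-1 raised the Jun genes in stripped-serum MR49F cells, and JUN by far the most. JUN, the founding Jun protein and a strong transactivator, was at 8.47, 8.11 and 9.06 FPKM in the vehicle samples and at 61.4, 66.2 and 63.7 FPKM with JQ-1. With enzalutamide it was at 6.88, 6.69 and 6.601 FPKM, and with enzalutamide and JQ-1 at 39.6, 42.4 and 41.8 FPKM. With DHT it was at 7.85, 8.73 and 9.32 FPKM, and with DHT and JQ-1 at 51.3, 56.5 and 55.2 FPKM. Every JQ-1 sample was thus far above every sample without it, in each hormonal setting. On FPKM, the 3 JQ-1 conditions did not overlap one another. From counts, JUN averaged 406.7 CPM (SD 25.7) with JQ-1 and 372.4 CPM (SD 25.72) with DHT and JQ-1. With enzalutamide and JQ-1 it averaged 254.9 CPM (SD 1.449). The JQ-1 conditions were not tested against one another. From counts, the log2 fold change with JQ-1 was 3.06 (SE 0.10, adjusted p = 3.41e-29, edgeR quasi-likelihood test with Benjamini-Hochberg adjustment) on vehicle, 2.64 (SE 0.11, adjusted p = 1.88e-16) on enzalutamide and 2.81 (SE 0.11, adjusted p = 6.83e-22) on DHT. On the FPKM scale the differences were 2.76, 2.45 and 2.52. The raw counts ran from 42 to 78 reads without JQ-1 and from 256 to 723 reads with it.

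JUND, a Jun protein that is expressed in most resting cells and often restrains proliferation, followed JUN in direction but with a smaller change. It was at 15.35, 14.98 and 16.19 FPKM with vehicle and at 38.7, 45.1 and 43.5 FPKM with JQ-1. The enzalutamide samples (21.3, 17.6 and 18.3 FPKM) lay below those with enzalutamide and JQ-1 (40.86, 37.45 and 42.99 FPKM), and the DHT samples (18.98, 20.65 and 21.58 FPKM) below those with DHT and JQ-1 (46.1, 45.9 and 46.5 FPKM). By edgeR, the log2 fold change was 1.47 (SE 0.11, adjusted p = 2.40e-15) on vehicle, 1.085 (SE 0.12, adjusted p = 6.39e-08) on enzalutamide and 1.18 (SE 0.10, adjusted p = 7.90e-12) on DHT. Thus all 9 JQ-1 samples had more JUND than any of the other 21 samples of the series, which ranged from 14.98 to 21.6 FPKM.

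JUNB, which forms weaker activating dimers than JUN and can oppose it, rose less. Its vehicle samples were at 13.8, 13.3 and 14.8 FPKM and its JQ-1 samples at 19.4, 21.9 and 20.9 FPKM, without overlap. The log2 fold change was 0.60 (SE 0.15, adjusted p = 0.000713, edgeR). On DHT, JUNB went from 14.0, 15.7 and 16.4 to 19.0, 23.2 and 23.1 FPKM with JQ-1 (log2 fold change 0.43, SE 0.14, adjusted p = 0.0108, edgeR). That call was lost without DHT+JQ-1 replicate 3, where the adjusted p was 0.0659, and under DESeq2 (0.060). On enzalutamide, the samples went from 14.3, 14.6 and 12.8 to 19.5, 20.4 and 21.6 FPKM, also without overlap, and here counts and FPKM gave different calls (edgeR log2 fold change 0.30, SE 0.16, adjusted p = 0.122, limma 0.53, SE 0.06, adjusted p = 3.80e-05). From FPKM, all 3 Jun genes were thus higher with JQ-1 in all 3 settings, by different sizes.

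**Figure D2:**
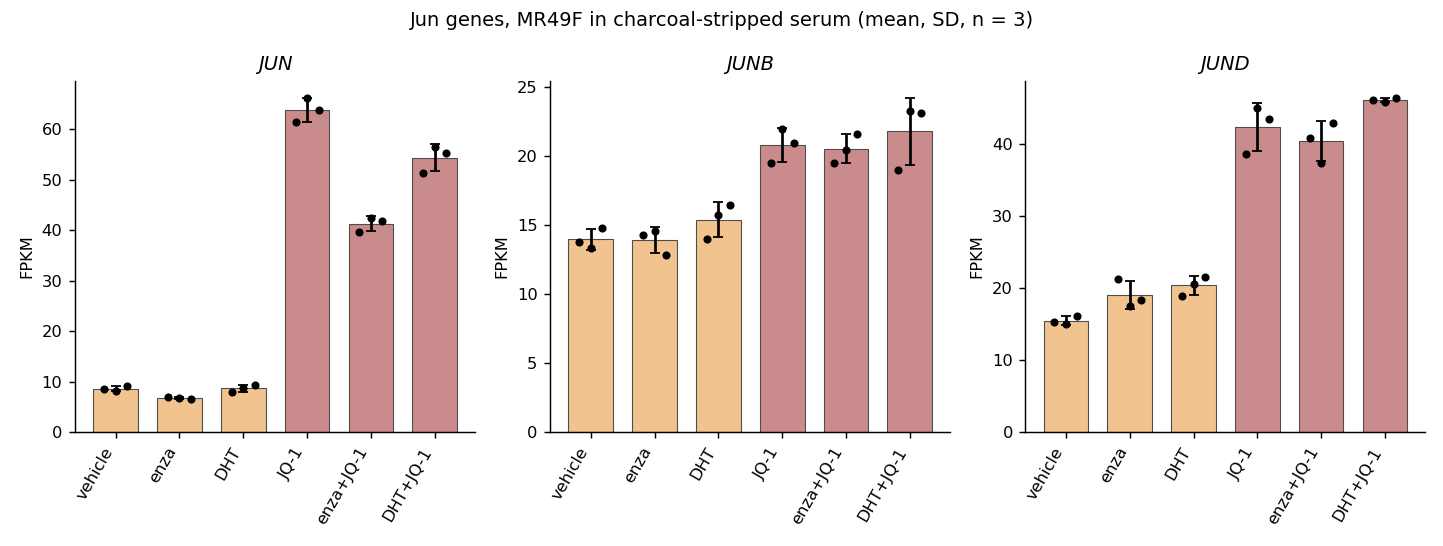
FPKM of JUN, JUNB and JUND in stripped-serum MR49F cells, with bars for the mean of 3 samples, error bars for the SD and points for the samples, on axes that start at 0 and differ between panels. Light bars are conditions without JQ-1 and red bars conditions with it, and in each panel every red group lies above its light counterpart without overlap.

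FOS, a rapidly induced and short-lived transcript, did not follow the Jun genes. It was highest in the vehicle samples, at 4.17, 4.25 and 4.10 FPKM. All 5 treatments were below that, at 2.39, 2.38 and 2.04 FPKM with enzalutamide, 1.00, 1.25 and 1.08 FPKM with DHT, and 1.80, 1.69 and 1.58 FPKM with JQ-1. With enzalutamide and JQ-1 it was at 2.03, 2.49 and 1.88 FPKM, and with DHT and JQ-1 at 2.19, 2.68 and 2.96 FPKM. No treated sample reached a vehicle sample, and the DHT samples were the lowest. By edgeR, the log2 fold change of FOS was -1.60 with DHT (SE 0.41, adjusted p = 0.00317) and -1.60 with JQ-1 (SE 0.38, adjusted p = 0.000447). With enzalutamide it was -1.46 (SE 0.43, adjusted p = 0.0440), a call lost in each of the 6 fits without 1 sample (adjusted p 0.0558 to 0.171) and under DESeq2 (0.111). These calls rest on few reads, 14 to 20 in the vehicle samples and 1 to 9 in the enzalutamide, DHT and JQ-1 samples. In stripped serum, FOS passed the count filter only where vehicle samples, its highest, were included. The count tests of FOS, with those of its JQ-1 response below, thus rest on a gene admitted by its vehicle level. The FPKM of FOS differed by -0.66 with enzalutamide (limma, SE 0.06, adjusted p = 5.89e-05), -1.30 with DHT and -0.94 with JQ-1 on the log2(FPKM + 1) scale.

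On FPKM, the response of FOS to JQ-1 differed in direction between vehicle and DHT. JQ-1 lowered FOS on vehicle, but on DHT the JQ-1 samples lay above the DHT samples without overlap (limma difference 0.77, SE 0.09, adjusted p = 5.80e-05). On enzalutamide, samples with and without JQ-1 overlapped (-0.06, SE 0.09, adjusted p = 0.512, limma). The CPM values with and without JQ-1 overlapped on DHT and on enzalutamide, where FOS was not tested on counts. The difference between the JQ-1 response on DHT and on vehicle was 2.34 on the log2 scale from counts (SE 0.60, adjusted p = 0.00539, edgeR) and 1.72 from FPKM (SE 0.11, adjusted p = 1.55e-07, limma). For enzalutamide the same difference was 2.17 from counts (SE 0.63, adjusted p = 0.0910, edgeR) and 0.88 from FPKM (SE 0.10, adjusted p = 0.000146, limma).

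FOSL2, which encodes FRA2, a Fos protein without the transactivation domain of FOS, had its highest level with DHT and JQ-1 together. The vehicle samples were at 11.7, 10.7 and 11.4 FPKM and the JQ-1 samples at 10.86, 11.04 and 11.64 FPKM, and these overlapped. Enzalutamide alone gave 7.32, 7.46 and 7.45 FPKM and DHT alone 9.34, 8.69 and 8.86 FPKM. With DHT and JQ-1 the values were 21.2, 21.8 and 22.1 FPKM, and with enzalutamide and JQ-1 they were 9.76, 9.65 and 9.40 FPKM. FOSL2 thus did not pass the test with JQ-1 on vehicle (log2 fold change 0.12, SE 0.14, adjusted p = 0.495, edgeR) but rose by 1.32 (SE 0.13, adjusted p = 8.23e-11, edgeR) on DHT and by 0.67 (SE 0.17, adjusted p = 0.00199, edgeR) on enzalutamide. The difference between the JQ-1 response on DHT and on vehicle was 1.20 both from counts (SE 0.18, adjusted p = 4.85e-06, edgeR) and from FPKM (SE 0.06, adjusted p = 2.71e-08, limma). Against vehicle, enzalutamide lowered FOSL2 by -0.73 (SE 0.16, adjusted p = 0.00690, edgeR), a call lost without enzalutamide replicate 2 (adjusted p = 0.0676) and under DESeq2 (0.0533). The corresponding value with DHT was -0.28 (SE 0.15, adjusted p = 0.141, edgeR), and -0.30 from FPKM (SE 0.05, adjusted p = 0.000563, limma).

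**Figure D3:**
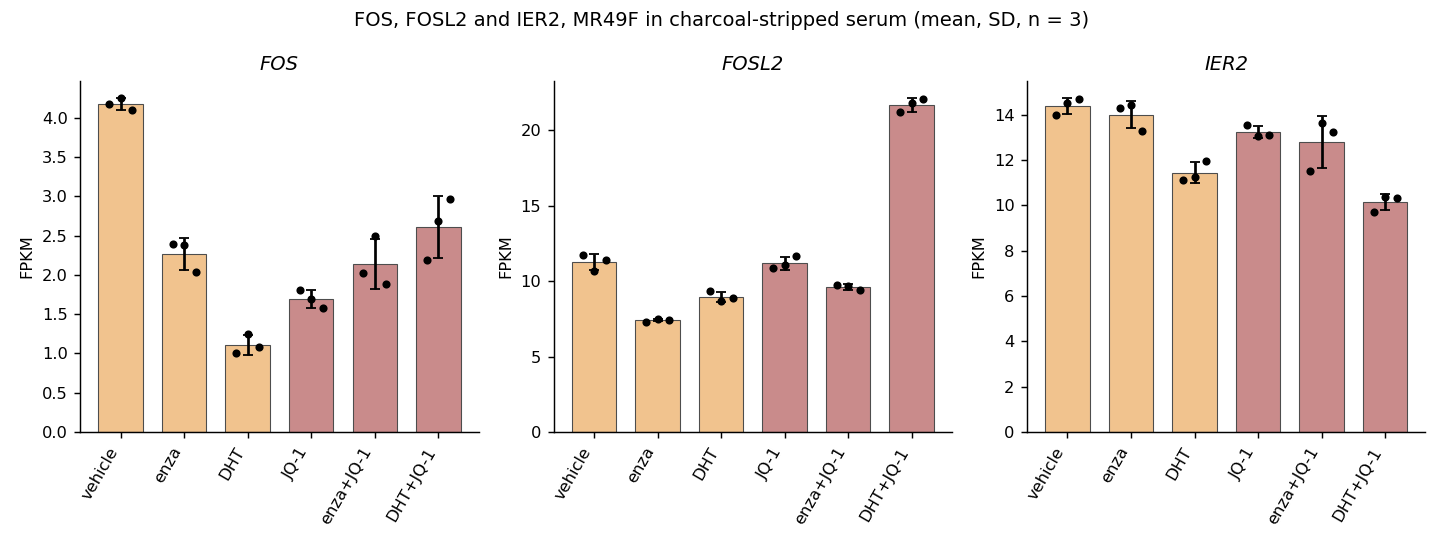
FPKM of FOS, FOSL2 and IER2 in stripped-serum MR49F cells, with bars for the mean of 3 samples, error bars for the SD and points for the samples, on axes that start at 0 and differ between panels. FOS is highest with vehicle (4.10 to 4.25 FPKM), FOSL2 with DHT and JQ-1 (21.2 to 22.1 FPKM), and IER2 has its lowest means in the 2 conditions with DHT (9.73 to 11.98 FPKM).

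The remaining Fos genes were near the bottom of the measurable range. FOSB, whose transcripts encode long and truncated forms of a Fos protein, was at 0.462 to 0.586 FPKM in the vehicle samples and at 0.173 to 0.389 FPKM in the JQ-1 samples of all 3 kinds, but DHT alone, at 0.260 to 0.365 FPKM, was within that range. FOSL1, which encodes FRA1, was at 0.123 to 0.158 FPKM with vehicle and at 0.0915 FPKM or less in all 9 JQ-1 samples, and it was listed at 0 in 1 DHT sample and in 1 sample with DHT and JQ-1. Neither had more than 5 counted reads in any stripped-serum sample, and neither was tested there.

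Among the other immediate early genes, IER2, a nuclear protein of the immediate early class, was lower with DHT. It was at 14.0, 14.5 and 14.7 FPKM with vehicle, at 11.13, 11.24 and 11.98 FPKM with DHT and at 9.73, 10.4 and 10.3 FPKM with DHT and JQ-1. The DHT and vehicle samples did not overlap, and the difference passed the test from FPKM (-0.31, SE 0.04, adjusted p = 0.000247, limma) but not from counts (-0.22, SE 0.18, adjusted p = 0.360, edgeR). With JQ-1 on vehicle, IER2 was at 13.5, 13.1 and 13.1 FPKM (limma -0.11, SE 0.04, adjusted p = 0.0200), and JQ-1 on DHT gave a limma difference of -0.16 (SE 0.05, adjusted p = 0.0117), neither of which passed from counts (edgeR adjusted p = 0.254 for both). Enzalutamide samples, at 14.3, 14.4 and 13.3 FPKM, overlapped with vehicle (limma -0.04, SE 0.05, adjusted p = 0.561). IER3, a regulator of apoptosis and of ERK signalling, fell from 2.85 to 3.99 FPKM with vehicle to 2.05 to 2.61 FPKM with DHT (limma -0.39, SE 0.10, adjusted p = 0.00794). EGR1, a zinc-finger factor that is a classical target of serum and growth factors, was at 0.272 to 0.340 FPKM with vehicle and at 0.370 to 0.455 FPKM with JQ-1, with 1 to 4 counted reads in any stripped-serum sample, and was not tested.

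Counted over the members, JQ-1 against vehicle passed the edgeR test for 4 of the 6 members that could be tested, 3 higher and 1 lower, where 46.6% of all genes tested were called. The 1 lower was FOS, which passed the count filter only where vehicle samples, its highest, were included. The count was 3 of 5 on enzalutamide, all higher (45.1% of all genes), and 4 of 5 on DHT, all higher (54.7%). From FPKM, 5 of 7 members passed on vehicle, 3 higher and FOS and IER2 lower (75.1% of all genes), 5 of 7 on enzalutamide, all higher (75.7%), and 7 of 7 on DHT, 6 higher and IER2 lower (78.8%). Since JQ-1 moved a large share of all genes, these counts lie near the background. The median log2 fold change of the members tested was 0.36, 0.67 and 1.18 in the 3 settings, against -0.00293, -0.00364 and -0.000689 for all genes. These 3 medians cover different members, since FOS was tested on counts only in the vehicle setting, so their order cannot be read as a step. From FPKM the medians were smaller, at 0.18, 0.33 and 0.77. Genes of heat and stress handling moved as well, with 4 of 8 tested higher and 1 lower with JQ-1 on vehicle, led by GADD45A (log2 fold change 1.89, SE 0.23, adjusted p = 3.50e-09, edgeR). Of the 10 prostate epithelial markers, 1 was higher and 9 were lower in that comparison, and CD68 went from 2.61 to 1.58 FPKM. The part of these changes in the result was not tested.

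In stripped serum, FOS passed the count filter only where vehicle samples, its highest, were included, and each count tally below that names FOS carries this limit. Without JQ-1, enzalutamide against vehicle passed the edgeR test for 2 of 6 members, FOS and FOSL2, both lower (7.26% of all genes called). Leaving out any 1 sample left 0 to 1 members called for enzalutamide. From FPKM, 4 of 7 passed (38.7%), with JUND higher and JUN also lower. DHT against vehicle passed for 2 of 6, JUND higher (log2 fold change 0.46, SE 0.13, adjusted p = 0.00558, edgeR) and FOS lower (37.5%), and from FPKM for 5 of 7 (72.1%), JUND higher and FOS, FOSL2, IER2 and IER3 lower. Between DHT and enzalutamide, 0 of 5 members passed edgeR (19.4% of all genes), with 2 at an unadjusted p under 0.05 and 0 called by DESeq2, and FOSL2 passed without enzalutamide replicate 3 (adjusted p = 0.0359). From FPKM, 5 of 7 passed (57.4%), FOSL2 and JUN higher with DHT and FOS, IER2 and IER3 lower. The comparisons of enzalutamide and of DHT with vehicle share the vehicle samples. The test of whether the JQ-1 response differed between enzalutamide and vehicle called 0 of 6 members by edgeR (0.895% of all genes), with 4 at an unadjusted p under 0.05 and 0 by DESeq2, and 4 of 7 from FPKM (19.2%), FOS and FOSL2 positive and JUN (-0.31, SE 0.06, adjusted p = 0.00491, limma) and JUND negative. The same test for DHT called 2 of 6, FOS and FOSL2 (12.3%), and from FPKM 4 of 7 (48%), with the same signs.

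**Figure D4:**
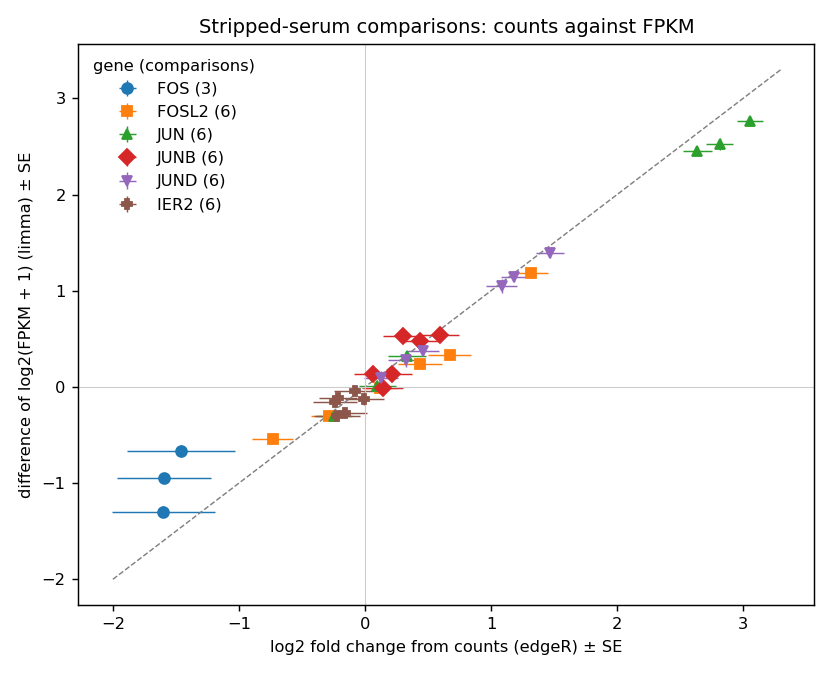
Change of each member in the 6 stripped-serum comparisons, as the log2 fold change from counts (x axis, edgeR) and the difference of log2(FPKM + 1) (y axis, limma), with SE bars and the line of equality dashed. Of 33 points, 31 had the same sign in both, and FOS lay furthest from the line, with a smaller change on the FPKM scale.

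In full serum with vehicle, MR49F had more FOS and JUNB and less JUN than V16D. Line and earlier exposure to enzalutamide cannot be told apart in this comparison. FOS was at 0.230, 0.127 and 0.243 FPKM in V16D and at 0.809, 0.550 and 0.681 FPKM in MR49F, from 6 to 11 and 24 to 31 reads. JUN, in contrast, was higher in V16D (8.19, 8.72 and 8.78 FPKM) than in MR49F (4.725, 4.198 and 3.893 FPKM). JUNB was lower in V16D (8.56, 7.18 and 7.89 FPKM) than in MR49F (18.4, 18.5 and 16.9 FPKM). The lines did not overlap for any of the 3. The log2 fold changes of MR49F against V16D were 1.76 for FOS (SE 0.295, adjusted p = 0.000255, edgeR), -0.999 for JUN (SE 0.08, adjusted p = 9.35e-07, edgeR) and 1.19 for JUNB (SE 0.08, adjusted p = 1.86e-07, edgeR). In full serum, FOS passed the count filter only where MR49F samples, its higher ones, were included. Its count test thus rests on a gene admitted by its MR49F level, and FOS was not tested on FPKM here. FOSL2 was at 3.57, 3.42 and 3.48 FPKM in V16D and at 5.18, 5.16 and 5.08 FPKM in MR49F (log2 fold change 0.54, SE 0.07, adjusted p = 2.64e-05, edgeR). FOSB (1.24, SE 0.31, adjusted p = 0.00388) and IER2 (0.73, SE 0.07, adjusted p = 1.64e-06) were also higher in MR49F by edgeR. JUND was at 15.6 to 16.8 FPKM in V16D and at 17.0 to 19.8 FPKM in MR49F, a difference that did not pass (0.14, SE 0.07, adjusted p = 0.0929, edgeR) but did without MR49F replicate 1 (0.0140) or 3 (0.0214). In all, 6 of 8 members tested passed, 5 higher and 1 lower, where 63.7% of all genes did, and from FPKM 4 of 6 (62.6%), so that these counts lie near the background. The macrophage-associated marker CD68, the only marker of other cell types above 1 FPKM in all samples, was also higher in MR49F (5.76 against 2.36 FPKM), and its part in the result was not tested. Of the 5 markers of other cell types tested, CD68 was the 1 called higher and 2 were lower. The endothelial marker VWF was among those lower (-1.78, SE 0.24, adjusted p = 4.21e-05, edgeR).

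Enzalutamide in full serum raised JUNB in both lines. In V16D, JUNB went to 10.1, 10.6 and 9.06 FPKM (log2 fold change 0.305, SE 0.07, adjusted p = 7.35e-05, edgeR), and in MR49F to 22.8, 22.9 and 21.7 FPKM (0.28, SE 0.06, adjusted p = 0.0204, edgeR). Treated and vehicle samples did not overlap in either line, but the MR49F call was lost without vehicle replicate 2 or any of the 3 enzalutamide replicates (adjusted p 0.0619 to 0.111). JUN went the other way in V16D, to 6.46, 6.86 and 6.09 FPKM (-0.44, SE 0.06, adjusted p = 1.09e-13, edgeR). In MR49F it was at 3.58, 3.52 and 3.93 FPKM, which overlapped with vehicle (-0.26, SE 0.10, adjusted p = 0.1255, edgeR). IER2 rose in V16D, to 9.34, 10.5 and 8.745 FPKM from 8.06, 7.71 and 8.52 FPKM (0.20, SE 0.07, adjusted p = 0.00748, edgeR), a call lost without V16D enzalutamide replicate 2 (adjusted p = 0.178) or vehicle replicate 2 (0.0733), under DESeq2 (0.087) and on FPKM (limma 0.21, SE 0.07, adjusted p = 0.0568). EGR1 was at 0.101 to 0.190 FPKM with enzalutamide and 0.142 to 0.310 FPKM with vehicle in V16D (-0.79, SE 0.35, adjusted p = 0.0650, edgeR), and passed without vehicle replicate 2 (0.0271) or enzalutamide replicate 2 (0.0291). FOSL2 and JUND did not pass in either line, and their largest log2 fold change was -0.12.

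Of the 7 members tested in V16D, 3 passed with enzalutamide (37.5% of all genes), and from FPKM 2 of 6 (30.4%). Of the 8 tested in MR49F, 1 passed (8.48%), and from FPKM 1 of 6 (4.6%). The difference between the enzalutamide responses of the lines passed for 0 of 8 members by edgeR (6.95% of all genes), with 0 at an unadjusted p under 0.05 and 0 by DESeq2, and for 0 of 6 from FPKM (6.04%). For JUN that difference was 0.17 (SE 0.11) and for JUNB -0.03 (SE 0.10), so that the calls made in 1 line only are not shown to differ between them.

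**Figure D5:**
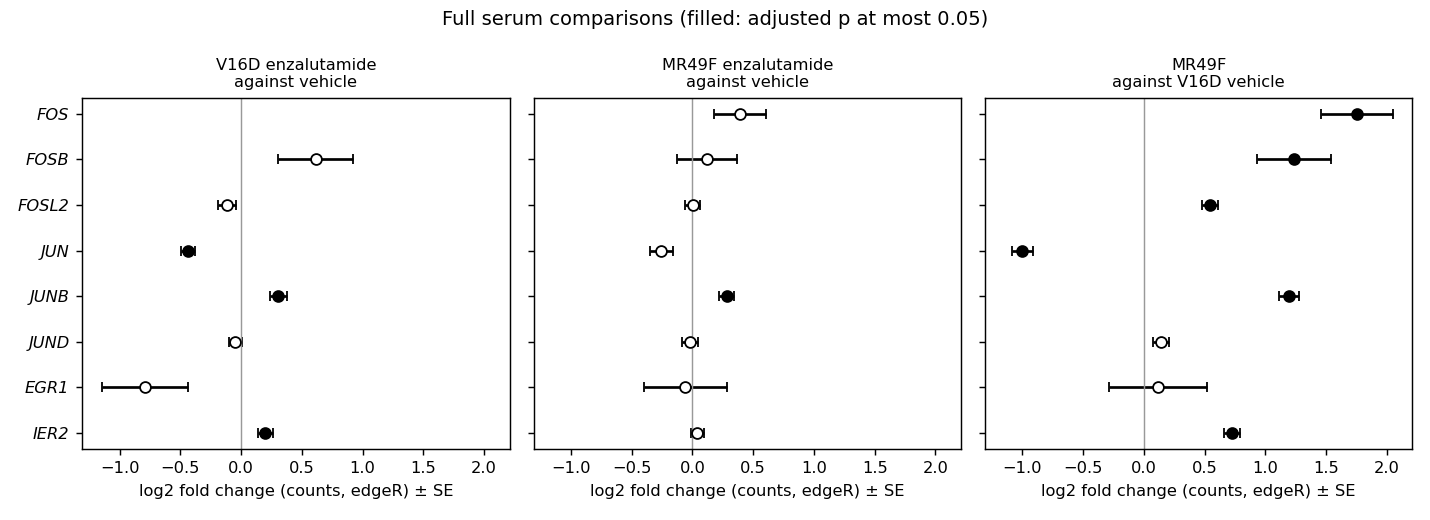
Log2 fold changes from counts (edgeR) with SE in the 3 full-serum comparisons, with filled points at an adjusted p of at most 0.05 and genes without a point not tested in that comparison. JUNB lies to the right in all 3 panels, and JUN lies at -0.44, -0.26 and -0.999.

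Vehicle-treated MR49F cells of the 2 sera differed for 5 of 7 members on FPKM (limma, 73.3% of all genes), where serum and experiment cannot be told apart. FOS was at 4.10 to 4.25 FPKM in stripped serum against 0.550 to 0.809 FPKM in full serum (1.63, SE 0.07, adjusted p = 1.11e-06, limma). Here, and in the test of its enzalutamide response between the sera below, FOS passed the FPKM filter only through its stripped-serum samples. Both tests, and the counts of members that include FOS, thus rest on a gene admitted by its level in stripped serum. FOSL2 (1.00, SE 0.05, adjusted p = 2.80e-06) and JUN (0.86, SE 0.07, adjusted p = 3.42e-05) were also higher in stripped serum by limma. JUNB (-0.34, SE 0.06, adjusted p = 0.00157) and JUND (-0.20, SE 0.07, adjusted p = 0.0297) were lower by limma, and the JUND call was lost without full-serum replicate 2 or stripped-serum replicate 1 or 2 (adjusted p 0.0826 to 0.0982), whereas IER3 passed without stripped-serum replicate 3 (0.0449). After quantile normalization the JUND value was -0.09 (adjusted p = 0.248, limma) and IER2 passed (0.19, adjusted p = 0.00516, limma), which made 4 higher and 1 lower in place of 3 and 2. The enzalutamide response of MR49F differed between the sera for 3 of 7 members (34.1% of all genes), all more negative in stripped serum. Those were FOS (-0.84, SE 0.11, adjusted p = 0.000218, limma), FOSL2 (-0.58, SE 0.06, adjusted p = 5.65e-05, limma) and JUNB (-0.32, SE 0.08, adjusted p = 0.0116, limma), and JUND passed as well without stripped-serum enzalutamide replicate 2 (0.30, adjusted p = 0.0484) or after quantile normalization (0.27, adjusted p = 0.0474). FOS with enzalutamide in full serum was at 0.709, 1.01 and 0.985 FPKM, overlapping with vehicle (edgeR log2 fold change 0.39, SE 0.21, adjusted p = 0.276).

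Over 5 stripped-serum contrasts against vehicle, fitted together on counts, the genes whose changes lay nearest to those of JUN among 11812 genes were DHRS2, NEAT1 and HIST1H2BJ, with root mean square differences of 0.32, 0.33 and 0.40 on the log2 scale. NEAT1 had log2 fold changes of 2.40 with JQ-1, 2.50 with enzalutamide and JQ-1, and 2.63 with DHT and JQ-1, beside 3.05, 2.39 and 2.92 for JUN in the same fit. Those nearest to JUND were PLAGL1, GCDH and ZNRF2, at 0.12, 0.14 and 0.16. The contrasts share their vehicle samples, and this is a description of 18 samples.

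The pathway around the members was read from lists of related genes. Of 12 further AP-1 partners and competitors, JQ-1 on vehicle raised 3 and lowered 2 of 8 tested, where 46.6% of all genes were called, with a median log2 fold change of 0.21. ATF3, a stress-induced partner of Jun, went from 4.25 to 12.7 FPKM (log2 fold change 1.63, SE 0.23, adjusted p = 5.13e-08, edgeR). MAFK, a small Maf protein that lacks a transactivation domain, fell in counts (-1.78, SE 0.12, adjusted p = 8.57e-17, edgeR) while its FPKM went only from 6.81 to 5.60. MAF went from 0.542 to 3.29 FPKM with DHT (2.85, SE 0.33, adjusted p = 1.61e-07, edgeR) and, in full-serum V16D cells, from 14.2 to 2.23 FPKM with enzalutamide (-2.74, SE 0.05, adjusted p = 1.30e-296, edgeR). In stripped-serum MR49F cells it was at 0.602 FPKM with enzalutamide and at 1.51 FPKM with enzalutamide and JQ-1 (1.13, SE 0.37, adjusted p = 0.0144, edgeR, between these 2). The same list had 3 higher and 0 lower of 9 tested with DHT, and 0 higher and 4 lower of 9 with enzalutamide in V16D, where 37.5% of all genes were called in each.

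Of 26 other immediate early genes, DHT raised 2 and lowered 6 of 12 tested (37.5% of all genes called), and JQ-1 raised 5 and lowered 2 of 14 (46.6%). NR4A1, an orphan nuclear receptor, went from 3.57 to 14.1 FPKM with DHT (log2 fold change 2.14, SE 0.24, adjusted p = 9.66e-08, edgeR) and back to 3.87 FPKM when JQ-1 was added (-1.74, SE 0.25, adjusted p = 2.60e-07, edgeR). TRIB1, a pseudokinase, fell from 15.98 to 3.695 FPKM with DHT (-2.31, SE 0.23, adjusted p = 1.75e-08, edgeR) and to 4.92 FPKM with JQ-1 (-1.58, SE 0.19, adjusted p = 2.29e-09, edgeR). In full serum, NR4A1 fell with enzalutamide in V16D (-0.98, SE 0.08, adjusted p = 4.365e-30, edgeR) and in MR49F (-0.84, SE 0.07, adjusted p = 5.42e-05, edgeR).

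Of 14 feedback inhibitors of MAPK signalling, the pathway that drives FOS and EGR1, DHT raised 1 and lowered 3 of 9 tested (37.5% of all genes called). The phosphatase gene DUSP4 rose from 2.90 to 11.3 FPKM (log2 fold change 2.13, SE 0.20, adjusted p = 4.66e-09, edgeR), while DUSP5 fell from 4.19 to 0.577 FPKM (-2.30, SE 0.49, adjusted p = 0.000630, edgeR). Of 21 kinases and factors upstream of immediate early genes, all were tested, and JQ-1 raised 4 and lowered 3, a smaller share than the 46.6% called among all genes. MAPK8, which encodes the Jun kinase JNK1, went from 14.3 to 24.2 FPKM (0.95, SE 0.20, adjusted p = 8.47e-05, edgeR), and MKL1, a cofactor of serum response factor, from 5.13 to 9.97 FPKM (0.92, SE 0.13, adjusted p = 1.79e-07, edgeR). ELK4, an ETS partner of serum response factor, rose in stripped-serum MR49F cells from 15.7 to 41.5 FPKM with DHT (1.26, SE 0.11, adjusted p = 1.74e-09, edgeR). With enzalutamide it rose there as well, to 29.65 FPKM (0.85, SE 0.12, adjusted p = 0.000111, edgeR). In full-serum V16D cells it fell from 35.1 to 18.2 FPKM with enzalutamide (-0.98, SE 0.02, adjusted p = 6.43e-191, edgeR).

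Of 22 genes known as AP-1 targets, 21 were in the count tables and only 3 could be tested with JQ-1 on vehicle, of which 0 rose and 2 fell (46.6% of all genes called). CCND1, which encodes cyclin D1, fell from 82.2 to 44.3 FPKM (log2 fold change -0.76, SE 0.08, adjusted p = 3.78e-11, edgeR), and KRT18, a keratin that is also on the list of prostate epithelial markers, from 190 to 141 FPKM (-0.43, SE 0.08, adjusted p = 8.43e-06, edgeR). On DHT, 1 rose and 2 fell of 3 tested with JQ-1 (54.7%). HBEGF, an EGF receptor ligand, went from 1.02 to 3.41 FPKM (1.91, SE 0.41, adjusted p = 0.000146, edgeR), while KRT18 (-0.67, SE 0.07, adjusted p = 5.63e-10, edgeR) and CCND1 (-0.49, SE 0.08, adjusted p = 3.66e-06, edgeR) fell.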

How the data were processed

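RNA was measured by poly(A), strand-marked, single-end sequencing of 30 samples, grouped by the labels. The authors aligned reads to GRCh37 (TopHat2 2.0.9), and deposited raw counts per gene (HTSeq) and FPKM per transcript (Cufflinks 2.1.1), here summed by symbol. No columns of the authors' comparisons were used. Members, gene lists and tests were chosen with earlier results of these data known.

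Counts were tested with edgeR 4.0.16 (TMM, filterByExpr with a minimum count of 10, quasi-likelihood F test) in R 4.3.3, fitting the groups compared and, for responses compared, all 4 groups. Across sera, and as an alternative everywhere, limma 3.58.1 with trend was fitted to log2(FPKM + 1) of symbols at 1 FPKM or more in at least 3 samples. P-values were Benjamini-Hochberg adjusted over all genes tested, with a threshold of 0.05. The scripts were tested on simulated data. Full-serum libraries held 13170504 to 21154962 counted reads and stripped-serum libraries 982130 to 1813262, so that low genes could be tested less often in stripped serum. No 2 samples were identical. The alternatives were DESeq2 1.42.0, its size factors, no filter, another pseudocount (0.1), quantile normalization across sera, a replicate block and leaving out each sample. Named genes of other lists were at most 3 per list and comparison, those with the largest change among genes past the threshold, without overlap of replicates and at 5 CPM or more in the higher group. All members were described. Lists were AP-1 partners and competitors, other immediate early genes, MAPK feedback inhibitors, upstream kinases and factors, AP-1 targets, heat and stress genes, and markers of prostate epithelium and of other cells. Promoters came from RefSeq (GRCh38.p14), with entries for 8 of the 10 members, and positions from GENCODE v44 lifted to GRCh37, and the builds were not combined. Some items are not reported here.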

Additional observations from a re-analysis of the deposited data

Results flagged for a closer look

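The response to JQ-1 in stripped serum differed between DHT-treated and vehicle-treated MR49F cells for FOS and FOSL2, by a test of the difference itself (edgeR, Benjamini-Hochberg adjustment). For FOS the difference was 2.34 on the log2 scale (SE 0.595, adjusted p = 0.00539), on 4 to 20 reads per sample. FOS could be tested on counts in stripped serum only where vehicle samples, its highest, were included. On FPKM, FOS was lower with JQ-1 on vehicle in 3 of 3 samples and higher with it on DHT in 3 of 3, whereas the CPM values on DHT overlapped. For FOSL2 it was 1.20 (SE 0.184, adjusted p = 4.85e-06), with JQ-1 and vehicle samples overlapping on FPKM and all 3 samples with DHT and JQ-1 above all 3 with DHT.

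The response of MR49F cells to enzalutamide differed between stripped and full serum for FOS, FOSL2 and JUNB (limma on log2(FPKM + 1)). The difference was -0.842 for FOS (SE 0.110, adjusted p = 0.000218), -0.578 for FOSL2 (SE 0.0624, adjusted p = 5.65e-05) and -0.319 for JUNB (SE 0.0809, adjusted p = 0.0116). FOS passed the FPKM filter in this test only through its stripped-serum samples, where it was higher. Serum and experiment cannot be told apart.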

How the results depend on the processing

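The counts of members called moved mainly between counts and FPKM in stripped serum. With FPKM (pseudocount 1, pseudocount 0.1, and no filter) they were 4, 4 and 4 for enzalutamide against vehicle, 5, 5 and 6 for DHT against vehicle, 5, 5 and 5 for DHT against enzalutamide, 5, 5 and 6 for JQ-1 on enzalutamide and 7, 7 and 7 for JQ-1 on DHT. JQ-1 on vehicle gave 8 with no filter on FPKM. The JQ-1 by enzalutamide interaction gave 4, 4 and 3, and 1 with no filter on counts, and the JQ-1 by DHT interaction gave 4 and 4 with the filter. DESeq2 called 0 for enzalutamide against vehicle and 1 for the JQ-1 by DHT interaction, where it gave FOS no adjusted p. It also lost IER2 with enzalutamide in V16D (adjusted p = 0.087) and JUNB with JQ-1 on DHT (0.060). The causes were not tested. No call changed direction under any alternative.

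Leaving out 1 sample gave 3 to 3 members for enzalutamide in V16D, 0 to 1 in full-serum MR49F and 0 to 1 in stripped serum, 6 to 7 between the lines, 2 to 2 for DHT against vehicle, 0 to 1 for DHT against enzalutamide, and 4 to 4, 3 to 3 and 3 to 4 for JQ-1 on vehicle, enzalutamide and DHT. It gave 0 to 0 for the line by enzalutamide and JQ-1 by enzalutamide interactions, 2 to 2 for JQ-1 by DHT, 3 to 5 between sera and 3 to 4 for serum by enzalutamide.

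Samples with the same replicate number did not deviate together (mean r 0.00627 in full serum and 0.0135 in stripped serum, 1 of 45 stripped-serum pairs above 0.1), so the numbers were not taken as pairs. With a replicate block, 4 members passed between sera instead of 5, as JUND did not (adjusted p = 0.0603, limma), and no other call of a member changed. FOS, FOSB, FOSL1, EGR1 and IER3 had at most 20 reads in any stripped-serum sample, which limits the precision of their counts.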

Other observations

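Regulators around the members also separated the lines in full serum with vehicle, where line and earlier exposure to enzalutamide cannot be told apart. SPRY4, an inhibitor of receptor tyrosine kinase signalling, was at 1.33 FPKM in MR49F and 0.0784 FPKM in V16D (log2 fold change 4.07, SE 0.19, adjusted p = 8.55e-09, edgeR), and DUSP4, a nuclear MAPK phosphatase, at 31.3 and 7.40 FPKM (2.08, SE 0.05, adjusted p = 1.69e-11, edgeR). ZFP36L1, which promotes decay of AU-rich transcripts, was at 0.442 FPKM in MR49F and 3.87 FPKM in V16D (-2.96, SE 0.15, adjusted p = 1.25e-08, edgeR). RPS6KA3, which encodes the ERK-activated kinase RSK2, was at 19.7 and 5.97 FPKM (1.74, SE 0.07, adjusted p = 1.32e-09, edgeR). Of the MAPK feedback inhibitors, 6 of 14 tested were higher and 6 lower in MR49F, where 63.7% of all genes were called.

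Heat and stress genes moved with DHT in stripped serum, with 5 higher and 2 lower of 8 tested (37.5% of all genes called), among them the chaperone genes HSPH1 (log2 fold change 0.70, SE 0.09, adjusted p = 1.43e-06, edgeR) and HSPA8 (0.67, SE 0.08, adjusted p = 1.24e-07, edgeR). The growth arrest gene GADD45A went from 4.29 FPKM with DHT to 24.6 FPKM with DHT and JQ-1 (2.82, SE 0.25, adjusted p = 8.385e-12, edgeR).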
